A study of Mus musculus with 6 samples.

Results

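The HoxB cluster is 1 of the 4 clusters of Hox genes, which are homeobox genes, in the mouse genome. Its 10 Hoxb genes (Hoxb1 to Hoxb9 and Hoxb13) are described here in immortalized mouse embryonic fibroblasts (MEFs) with and without the mitochondrial protease YME1L. The members were every locus of the deposited count table whose name holds a Hoxb gene symbol, 10 of 51499 loci, and none of the 10 was merged with another gene. The family was chosen by its difference between these same 6 libraries, so the difference is given below as a description, with no p, and the calls of the members are counted only beside the share of all loci called.

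Transcripts were measured by RNA sequencing of poly(A)-selected libraries from 3 independent cultures of WT MEFs (genotype Yme1l fl/fl) and 3 of Yme1l-/- MEFs. Both genotypes derive from primary fibroblasts of animals with a loxP-flanked Yme1l gene that were immortalized with the SV40 large T antigen. Both genotypes are clones expanded from such immortalized cells after exposure to Cre, the WT ones being those in which the allele was still intact. The study asked how loss of YME1L changes gene expression. Because each genotype is a set of cultures grown from cloned cells, genotype and clone cannot be told apart in any of the values below.

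HOX proteins are transcription factors that bind DNA through a homeodomain and give cells their identity along the head-to-tail axis of the embryo. Within a cluster the genes stand in the same transcriptional orientation, those at the 3′ end (Hoxb1, Hoxb2) are used early and towards the head, and those at the 5′ end (Hoxb9, Hoxb13) late and towards the tail. Fibroblasts in culture keep much of the HOX pattern of the body site they came from. Polycomb proteins hold unused HOX genes silent, trithorax proteins keep used ones active, retinoic acid induces the 3′ genes, and PBX and MEIS proteins bind DNA together with HOX proteins.

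In the annotation (GENCODE M21, genome build GRCm38, which is mm10) the cluster lies on chr11:96194316-96368256, a span of 173.941 kb, and all 10 genes lie on the plus strand. Hoxb13 at chr11:96194316-96197447 stands 74.009 kb away from Hoxb9, and the other neighbours are separated by 1.307 to 12.145 kb. In between lie Mir196a-1 and Mir10a, genes for the microRNAs miR-196a and miR-10a, which are known regulators of HOX transcripts. The mature sequences (RefSeq, GRCm38.p6, plus strand) are shown because a gene for each lies in this cluster, with the seed, bases 2 to 8, in capitals.
mmu-miR-196a-5p, chr11:96265187-96265208: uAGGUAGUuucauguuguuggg
mmu-miR-10a-5p, chr11:96317186-96317208: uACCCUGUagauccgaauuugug

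Within the longest annotated 3′ UTR of each Hoxb gene, a match to the miR-196a-5p seed (ACTACCT) was found once each in Hoxb7, Hoxb6 and Hoxb1, and a match to the miR-10a-5p seed (ACAGGGT) once, in Hoxb3. Among 20996 genes with such a 3′ UTR, 6.11% held ACTACCT and 12.5% held ACAGGGT. The 4 sites are printed 5′ to 3′ on the plus strand with the seed match in capitals, since they place microRNAs that have a gene in the cluster opposite its transcripts.
Hoxb7, chr11:96289784-96289805: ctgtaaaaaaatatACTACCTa
Hoxb6, chr11:96301373-96301394: tggaaggagcacatACTACCTa
Hoxb1, chr11:96368205-96368226: tctttgtatctgcaACTACCTc
Hoxb3, chr11:96347287-96347309: tgacttaacgtgaaaACAGGGTa

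Hoxb8 has no perfect seed match for either microRNA, but it held the longest pairing of the cluster. Without gaps, 21 of the 22 bases of miR-196a-5p paired by Watson-Crick rules with bases 418 to 439 of its 845-base 3′ UTR, and of 20914 genes with a 3′ UTR of sufficient length Hoxb8 was the only 1 with so many. The site is shown with the single base that did not pair by these rules in capitals, and that base, a G, lies opposite a U of the seed.
Hoxb8, chr11:96284888-96284909: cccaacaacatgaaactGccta

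At the seed sites in Hoxb7, Hoxb6 and Hoxb1, 14, 12 and 12 of the 22 bases paired, and at the Hoxb3 site 10 of the 23 bases of miR-10a-5p did. A match is a property of the letters alone. Libraries selected on poly(A) do not measure mature microRNAs, and the microRNA genes Mir196a-1 and Mir10a were listed at 0 counts in all 6 libraries.

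RefSeq promoter windows were at hand for 3 of the 10 genes, Hoxb8, Hoxb4 and Hoxb1. The 250 bases before each annotated start (GRCm38.p6, plus strand) are printed because Hoxb8 and Hoxb4 were among the genes higher in Yme1l-/- cells, whereas Hoxb1 was at 0 in every library. Capitals mark TGATNNAT, the letters that PBX and HOX proteins are known to bind together, on either strand.
Hoxb8, chr11:96281655-96281904: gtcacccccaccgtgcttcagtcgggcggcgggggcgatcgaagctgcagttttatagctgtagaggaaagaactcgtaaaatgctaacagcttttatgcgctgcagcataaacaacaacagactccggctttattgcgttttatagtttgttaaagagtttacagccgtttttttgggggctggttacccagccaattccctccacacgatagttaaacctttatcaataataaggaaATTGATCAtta
Hoxb4, chr11:96318017-96318266: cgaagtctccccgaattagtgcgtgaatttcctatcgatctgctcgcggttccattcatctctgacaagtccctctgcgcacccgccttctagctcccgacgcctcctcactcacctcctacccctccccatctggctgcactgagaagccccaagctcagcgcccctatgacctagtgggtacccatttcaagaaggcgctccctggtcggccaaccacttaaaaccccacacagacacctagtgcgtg
Hoxb1, chr11:96365508-96365757: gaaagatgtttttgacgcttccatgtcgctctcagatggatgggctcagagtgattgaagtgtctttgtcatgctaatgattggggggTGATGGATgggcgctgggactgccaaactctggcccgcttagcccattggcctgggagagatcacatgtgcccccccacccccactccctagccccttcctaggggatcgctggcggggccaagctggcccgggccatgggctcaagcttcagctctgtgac

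TGATNNAT occurred once in the Hoxb8 window, once in the Hoxb1 window and not in that of Hoxb4. It occurred in 7.68% of 32851 promoter windows of the same length. The Hoxb8 match sits directly at the start of the gene, and its last base is shared with a match to TAAT, the core letters bound by many homeodomains, which 54.9% of all windows hold. The Hoxb8 window also held 2 matches to TATAAA (12.4% of windows), 1 to CCAAT (33.8%) and 1 to GGGCGG (32.7%), all searched on both strands. CpG dinucleotides numbered 12 in Hoxb8, 14 in Hoxb4 and 7 in Hoxb1, against a median of 6 over all windows. The expressed genes thus differed in these letters, and a match names neither a bound site nor a cause.

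The WT libraries held 33180867 to 34012520 counted fragments and the Yme1l-/- libraries 34624075 to 49351107. Levels are given as CPM, counts per 1e6 of the library total after scaling with TMM factors of 0.973 to 1.04, and 3 counts, the floor used here, corresponded to 0.0589 to 0.0919 CPM. Floors cover counting error only. Yme1l1, the targeted gene, had 6327, 6292 and 5968 counts in WT and 1327, 1963 and 2067 in Yme1l-/-, a log2 fold change (Yme1l-/- over WT throughout) of -2.27 ± 0.05 (SE), so the labels matched the transcript. Of the fibroblast markers Col1a1, Col1a2, Vim and Fn1 had means of 1039 CPM or more in both genotypes, but Thy1 had at most 6 counts and Lum at most 11, 8 of the 10 markers were tested, of which 1 rose and 6 fell, beside 33.6% and 34.1% of all tested loci, and the sum over the 10 was 10800 to 11400 CPM in WT and 6650 to 7130 CPM in Yme1l-/-. WT replicate 2 stood apart in Dcn (257 counts against 52 and 51) and Col3a1 (9860 against 2858 and 2974), and values without it are given where they matter.

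Across the 10 Hoxb genes together, 7.945, 6.995 and 6.095 CPM were counted in the WT libraries and 164, 159 and 162 CPM in the Yme1l-/- libraries. The mean of 7.01 ± 0.926 CPM (SD, n = 3) in WT stood against 161.5 ± 2.81 CPM (SD, n = 3) in Yme1l-/-, a ratio of 23.0. In raw counts these sums were 263, 229 and 199 against 5744, 7994 and 8244. The WT cells were therefore not free of Hoxb transcripts, but held a low level of 9 of them. In bulk samples like these, fewer cells that make a transcript and less RNA per cell cannot be told apart.

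Of the 10 genes, 9 passed the filter on low counts, and all 9 were called higher in Yme1l-/- by edgeR's quasi-likelihood test at an adjusted p under 0.05, where 33.6% of the 13867 tested loci were called higher. None was called lower, against 34.1% of tested loci. In all 9 every Yme1l-/- library exceeded every WT library, as it did in 35.9% of tested loci. Their log2 fold changes ran from 3.38 to 5.81 with a median of 4.07, whereas the median over all tested loci was -0.0041 and over the 1112 tested loci of chromosome 11 it was 0.36. A log2 fold change of at least that of the lowest Hoxb gene was found in 187 loci, 1.35% of those tested. Hoxb13 and Hoxb5 passed the filter through Yme1l-/-, since neither had 10 counts in every WT library. As the genes were selected on this contrast, these counts describe them and support nothing further.

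**Figure D1:**
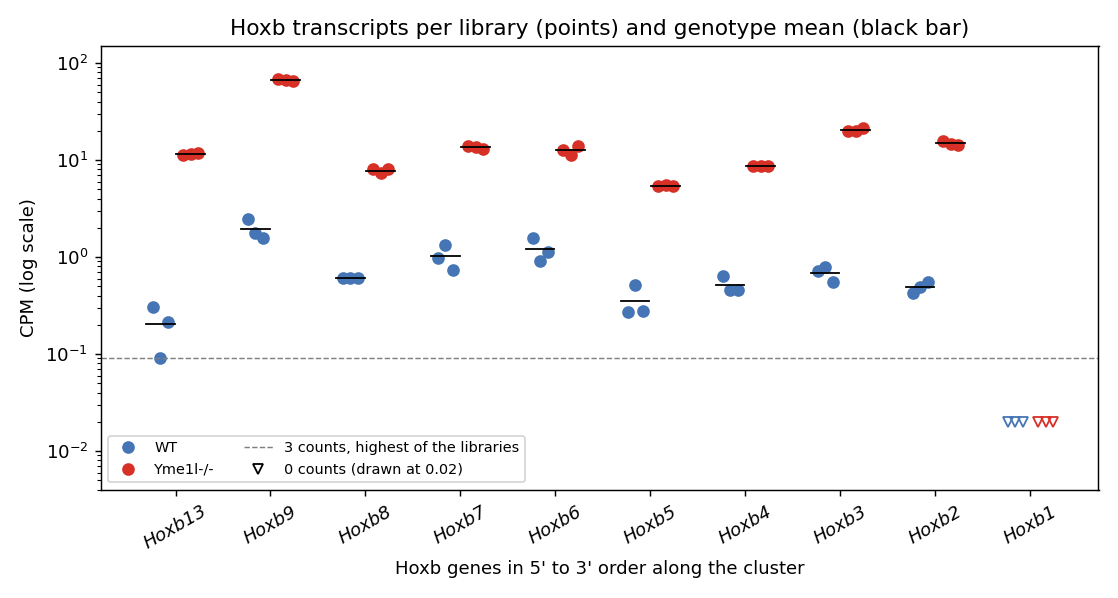
CPM on a log scale for each Hoxb gene in 5′ to 3′ order, with 1 point per library (WT blue, Yme1l-/- red, 3 each), black bars at the genotype means and a dashed line at the CPM of 3 counts. For 9 genes all red points lie above all blue ones, with the widest gap at Hoxb13, and Hoxb1 is at 0 counts in all 6 libraries.

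Hoxb13, the gene at the 5′ end, is the latest of the cluster to be used in the embryo and is best known from the tail end of the body, prostate and hindgut. It was measured at 0.302, 0.0916 and 0.214 CPM in WT and at 11.2, 11.5 and 11.9 CPM in Yme1l-/-. In WT this rested on 10, 3 and 7 counts, so that replicate 2 sat at the floor, whereas the Yme1l-/- libraries held 392, 581 and 609. The log2 fold change was 5.81 ± 0.21 (SE), the highest of the 9 genes, and it was 5.46 without WT replicate 2 and 6.21 without WT replicate 1. The lowest Yme1l-/- library was 37.1 times the highest WT library.

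Hoxb9, which takes part in patterning the ribs, had the highest mean of the Hoxb genes per unit of length in Yme1l-/-. It had 2.45, 1.77 and 1.56 CPM in WT and 68.5, 66.2 and 64.9 CPM in Yme1l-/-. Its log2 fold change was 5.11 ± 0.11 (SE), second to that of Hoxb13, although without WT replicate 3 it was 4.97, below Hoxb2 at 5.02. It took 27.2% ± 3.09 (SD, n = 3) of all Hoxb counts in WT and 41.2% ± 0.924 in Yme1l-/-, and the 3 libraries of each genotype did not overlap in this share.

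The 4 genes that follow, Hoxb8 to Hoxb5, act in the trunk of the embryo and had the 4 lowest ratios of the cluster with all libraries in the fit. Hoxb8, known for a role in blood progenitors and in microglia, had exactly 20 counts in each WT library and 8.03, 7.32 and 8.01 CPM in Yme1l-/-, against 0.604, 0.611 and 0.613 CPM in WT. Its log2 fold change was 3.67 ± 0.14 (SE). Hoxb7 had 0.967, 1.34 and 0.735 CPM in WT and 14.0, 13.6 and 13.0 CPM in Yme1l-/-, with a log2 fold change of 3.73 ± 0.16. The 2 genes thus lay within an SE of each other in ratio although Hoxb7 varied far more among the WT libraries.

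Hoxb6, the neighbour of Hoxb7, had the smallest log2 fold change, 3.38 ± 0.17 (SE). It was measured at 1.57, 0.916 and 1.13 CPM in WT and 12.6, 11.2 and 14.1 CPM in Yme1l-/-, and the lowest Yme1l-/- library was 7.14 times the highest WT library, the narrowest gap of the 9 genes. Hoxb5, which acts in enteric neural crest and in blood stem cells, was the least abundant of them per unit of length in Yme1l-/-. Its values were 0.272, 0.519 and 0.276 CPM in WT, from 9, 17 and 9 counts, and 5.37, 5.47 and 5.44 CPM in Yme1l-/-. The log2 fold change of Hoxb5 was 3.92 ± 0.21. Without WT replicate 2, in which its WT count was highest, Hoxb5 was at 4.29, above Hoxb4 at 3.98, and Hoxb7 was also at 3.98, so the order of these middle genes rested on that library.

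Towards the 3′ end the ratios were larger again. Hoxb4, known for expanding blood stem cells when it is supplied, had 0.634, 0.458 and 0.459 CPM in WT and 8.72, 8.73 and 8.73 CPM in Yme1l-/-, the tightest set of replicates of the cluster, with a log2 fold change of 4.07 ± 0.15 (SE). Hoxb3, which patterns the hindbrain and neck, had 0.725, 0.794 and 0.551 CPM in WT and 19.8, 19.8 and 21.5 CPM in Yme1l-/-, with a log2 fold change of 4.88 ± 0.13. Hoxb2, a hindbrain gene next to it, had 0.423, 0.489 and 0.551 CPM against 15.9, 14.8 and 14.1 CPM, with a log2 fold change of 4.93 ± 0.13. Hoxb3 and Hoxb2 therefore had nearly the same ratio, and that ratio exceeded the values of all genes from Hoxb8 to Hoxb4.

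Hoxb1, at the 3′ end, marks a single segment of the hindbrain in the embryo and is a direct target of retinoic acid. It was listed at 0 counts in all 6 libraries, which allows a level of up to 0.0589 to 0.0919 CPM per library. It could not be tested, and no ratio can be given. A count of 0 in this table need not mean that a transcript was absent, since Men1, a trithorax gene used in most cells, was also listed at 0 in every library.

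Along the cluster, then, log2 fold changes of 4.88 to 5.81 were found at the 5′ end (Hoxb13, Hoxb9) and near the 3′ end (Hoxb3, Hoxb2), and values between 3.38 and 4.07 for the 5 genes from Hoxb8 to Hoxb4. The same 4 genes took the 4 highest places in each fit that left out a library. The coefficient of variation ran from 0.725% to 52.2% in WT and from 0.106% to 11.4% in Yme1l-/-, and it was larger in WT for every detected gene except Hoxb8 (0.725% against 5.2%), and the WT values rested on 3 to 81 counts per gene and library. In the Hoxb mixture, Hoxb6 took 17.2% ± 3.57 (SD, n = 3) of counts in WT and 7.82% ± 0.829 in Yme1l-/-, and Hoxb13 took 2.88% ± 1.36 and 7.16% ± 0.300.

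Levels can be compared between genes only per unit of length, and for this CPM was divided by the length of the merged exons, which ranged from 1544 to 4251 bases. In Yme1l-/- cells Hoxb9 led with 25.9 ± 0.695 CPM per kb (SD, n = 3), followed by Hoxb7 with 8.78 ± 0.325 and Hoxb6 with 6.43 ± 0.733. Hoxb13 (5.24 CPM per kb), Hoxb3 (4.79), Hoxb2 (4.28), Hoxb4 (3.40), Hoxb8 (2.95) and Hoxb5 (1.95) came next. No neighbours in this order overlapped between their 3 libraries, although Hoxb13 and Hoxb3 came close, with 5.08 as the lowest and 5.05 as the highest value.

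The order in WT cells was far less distinct. Hoxb9 (0.749 CPM per kb), Hoxb7 (0.658) and Hoxb6 (0.615) overlapped with each other in WT and stood above the rest. Below them Hoxb8 (0.231), Hoxb4 (0.202), Hoxb3 (0.162), Hoxb2 (0.140), Hoxb5 (0.128) and Hoxb13 (0.0919) each overlapped with the next in this order. Hoxb9, Hoxb7 and Hoxb6 thus had the 3 highest means on this scale in both genotypes, but in WT replicate 2 Hoxb7 (0.871) was above Hoxb9 (0.688). Hoxb13 was last of the 9 detected genes in WT but not in Yme1l-/-, where it ranked above 5 of them. The authors' combined FPKM values come from another tool and other transcript lengths. In WT they put Hoxb7 (0.939) ahead of Hoxb9 (0.821). They also put Hoxb9 (27.4) and Hoxb7 (12.1) first in Yme1l-/-, but placed Hoxb2 (9.23) ahead of Hoxb6 (8.11), Hoxb3 (7.997) and Hoxb13 (5.53), so the order differed between the 2 measures, and the reason was not tested.

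**Figure D2:**
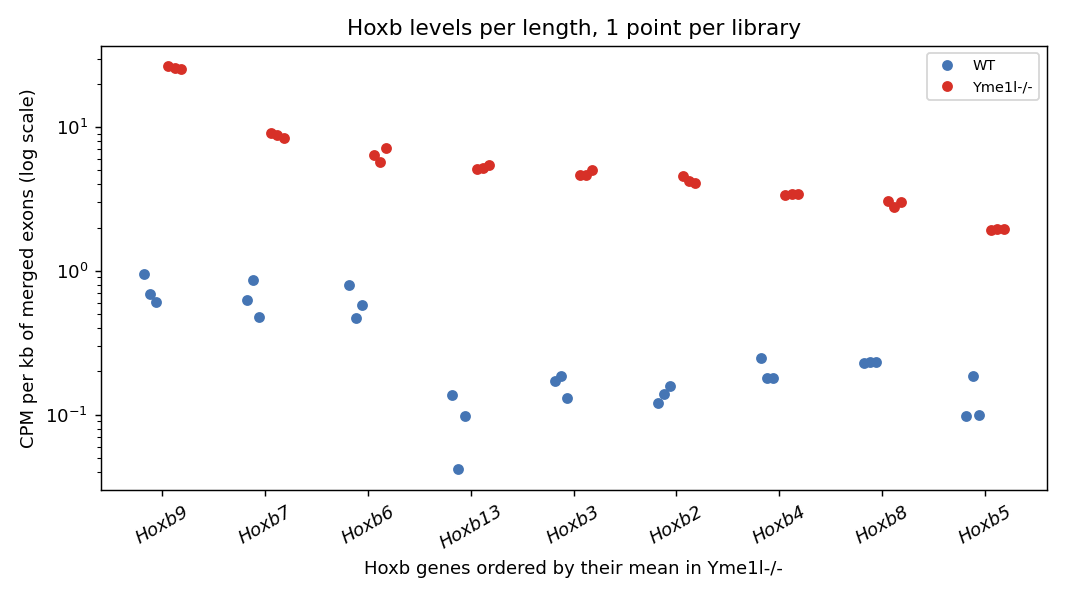
CPM per kb of merged exons on a log scale for the 9 detected Hoxb genes, ordered by their mean in Yme1l-/-, with 1 point per library (WT blue, Yme1l-/- red, 3 each). The red points step down from 25.9 at Hoxb9 to 1.95 at Hoxb5 without overlap between neighbours, whereas the blue points of most neighbours overlap.

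The space between the Hoxb genes holds 9 further annotated loci, of which 4 were tested and 3 rose, where 33.6% of all tested loci did. The 3 had at most 10 counts in any WT library and passed the filter on low counts through Yme1l-/-, so their count was largely fixed by the filter. Gm53, a long noncoding RNA that ends just before Mir196a-1 at chr11:96251105-96264868, had 7, 10 and 6 counts in WT and 290, 470 and 483 in Yme1l-/-. It rose by 5.26 ± 0.18 (SE) on the log2 scale (edgeR adjusted p = 8.46e-10). Gm53 lies in the wide gap between Hoxb13 and Hoxb9, and its ratio was close to that of both.

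Hoxb5os, an antisense transcript over Hoxb5 and Hoxb6 at chr11:96291024-96306910 on the minus strand, had 0 counts in every WT library and 44, 74 and 74 in Yme1l-/-, so that it was at least 15.2-fold higher (adjusted p = 1.54e-06, edgeR). Hoxb3os, antisense to Hoxb2 and part of Hoxb3 at chr11:96343072-96354691, had 7, 5 and 4 counts against 82, 84 and 63, and rose by 3.38 ± 0.36 (adjusted p = 6.93e-06, edgeR). The libraries were stranded, but whether the counting used strand is not given in the sources used here, so reads of these loci and of the Hoxb genes they overlap cannot be told apart.

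Not every locus between the outermost Hoxb genes was higher. Gm11539, a processed pseudogene between Hoxb13 and Gm53 that may take reads of its parent gene and is uncertain for that reason, had 30, 32 and 27 counts in WT and 21, 36 and 40 in Yme1l-/-, a log2 fold change of -0.35 ± 0.23 that did not pass the test (adjusted p = 0.192, edgeR), but with the chromosome medians removed it was called lower at -0.71 (adjusted p = 0.0187, edgeR). It had 0.904 ± 0.0753 CPM (SD, n = 3) in WT and 0.700 ± 0.0933 CPM in Yme1l-/-, and it was the only tested locus of the interval that was not higher in Yme1l-/-. Gm27605 had 0 counts in WT and 4, 5 and 0 in Yme1l-/-, Gm11536 had at most 2 in any library, and Gm27898 was at 0 throughout.

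Outside the cluster the difference was smaller. Within 500 kb on either side 13 of 37 loci were tested, of which 11 rose and 2 fell, beside 33.6% and 34.1% of all tested loci, with a median log2 fold change of 0.32, near the chromosome 11 median. The nearest tested protein-coding neighbours were Atp5g1, a subunit of the mitochondrial ATP synthase, at 0.52 ± 0.07 (adjusted p = 4.53e-05), and Snx11, a sorting nexin, at 0.31 ± 0.06 (adjusted p = 0.000949, edgeR). With the median of each chromosome removed Atp5g1 was at 0.16 and Snx11 at -0.05, neither called, and 4 flanking loci in place of 11 were called higher, while the 9 Hoxb genes stayed between 3.03 and 5.46.

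2 more distant loci on the Hoxb13 side had ratios like those of the Hoxb genes. Abi3, an adaptor protein of the actin cytoskeleton, had 0, 3 and 2 counts in WT and 32, 45 and 76 in Yme1l-/-, at least 12.0-fold higher (adjusted p = 2.28e-05, edgeR), and passed the filter through Yme1l-/-. B4galnt2, a glycosyltransferase gene, had 16, 9 and 11 against 182, 342 and 325 and rose by 4.06 ± 0.21 (adjusted p = 2.03e-08, edgeR), and it too passed the filter through Yme1l-/-. The loci between them and Hoxb13 included Igf2bp1, an RNA-binding protein gene, which fell by 0.36 ± 0.05 on the log2 scale (adjusted p = 3.8e-05, edgeR). On the other side 2010300F17Rik fell by 1.94 ± 0.15 (adjusted p = 6.38e-07, edgeR).

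**Figure D3:**
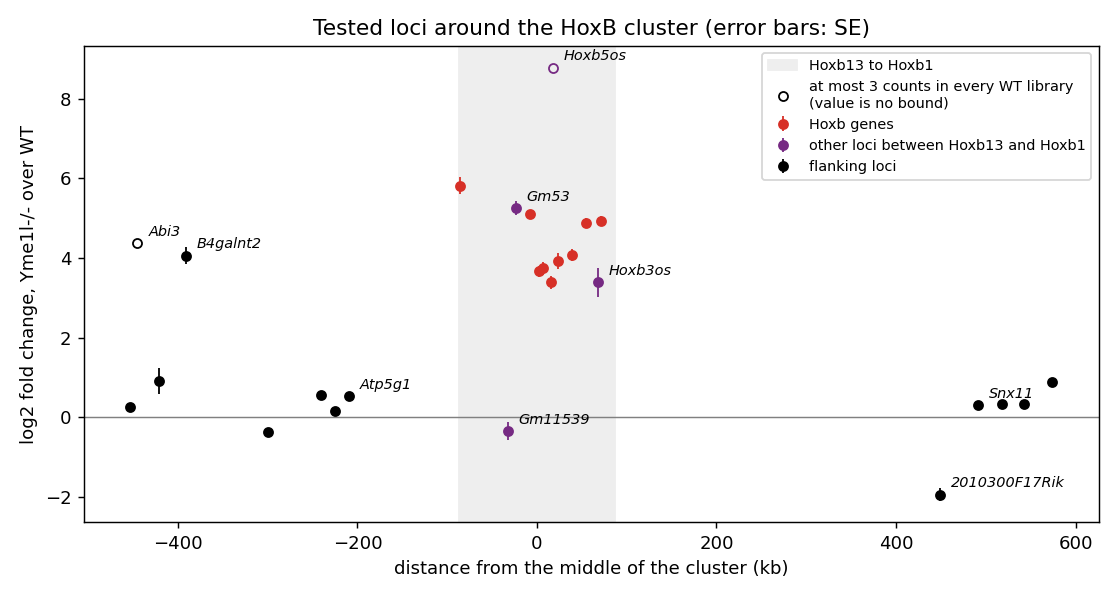
Log2 fold change (Yme1l-/- over WT) with SE for each tested locus within 500 kb of the cluster, plotted against the distance in kb from the middle of the cluster, with Hoxb genes in red, other loci of the interval in purple and flanking loci in black. Open circles are loci with at most 3 counts in every WT library, for which the fitted value is no bound. The 9 Hoxb genes lie between 3.38 and 5.81. Outside the shaded interval the nearest tested locus on the Hoxb13 side lies at 0.52, and on the other side the nearest lies at -1.94, followed by 0.31.

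The same paralogue number in another cluster did not always go with the same difference. Of the Hoxc loci 7 of 8 were tested and all 7 rose, where 33.6% of all tested loci did, with a median log2 fold change of 6.07. These 7 had at most 12 counts in any WT library and passed the filter on low counts through Yme1l-/-, while Hoxc11, low in both genotypes, was not tested, so that the filter largely fixed their count and median. Among them Hoxc13 (7.28 ± 0.17), Hoxc9 (5.95 ± 0.20) and Hoxc4 (6.25 ± 0.25) were each above the Hoxb gene of that number. Hoxc8 (3.49 ± 0.36) was close to Hoxb8 (3.67 ± 0.14). Of 10 Hoxa loci 4 rose, 4 fell and 2 were not called, close to the 33.6% and 34.1% of all tested loci, with a median of 0.03. Hoxa9 was at -3.09 ± 0.09 against 5.11 for Hoxb9, and Hoxa13 at -4.53 ± 0.35 against 5.81 for Hoxb13. The merged locus of Hoxa2 and Hoxa3 was at 1.66 ± 0.11, the same direction as Hoxb2 and Hoxb3 but a smaller ratio.

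The 5′ genes of the HoxD cluster stood opposite to those of HoxB. Hoxd13 had 5823, 5728 and 5500 counts in WT and 0 in each Yme1l-/- library, at least 2020-fold lower, and Hoxd9 had 26, 14 and 33 against 0, at least 8.65-fold lower. Hoxd8 rose by 0.88 ± 0.08 and the merged locus of Hoxd3 and Hoxd4 by 3.60 ± 0.35, the latter near Hoxb4 (4.07 ± 0.15). This merged locus had 3, 5 and 7 counts in WT and passed the filter on low counts through Yme1l-/-. The WT cells thus held more 5′ Hoxa and Hoxd transcripts and the Yme1l-/- cells more Hoxb and Hoxc transcripts, with no test made between clusters, since all come from the same libraries.

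**Figure D4:**
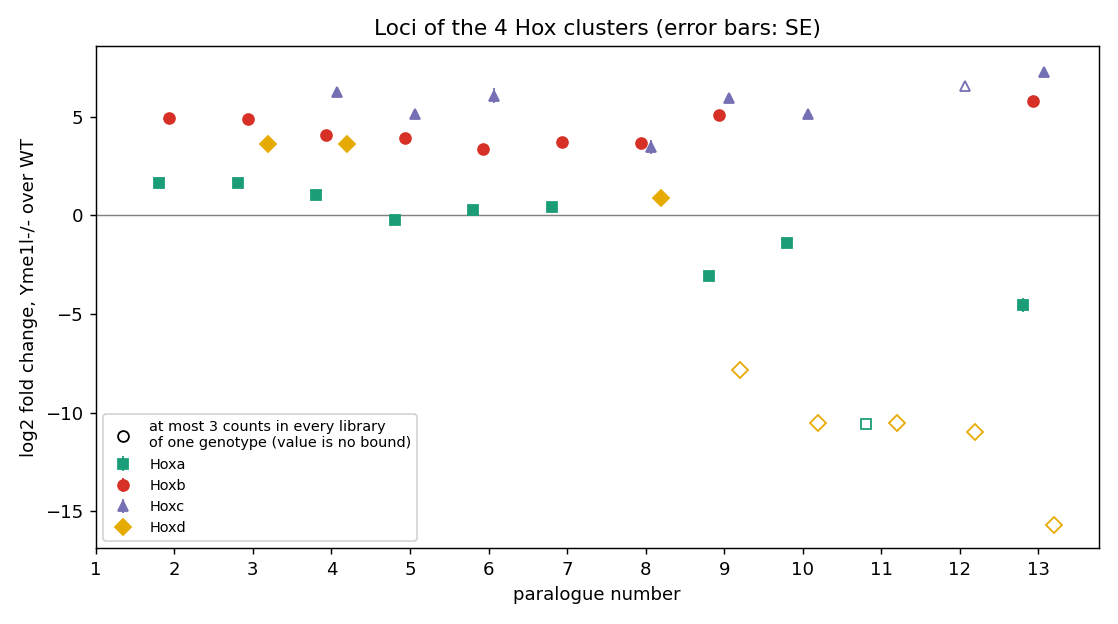
Log2 fold change (Yme1l-/- over WT) with SE against paralogue number for loci of the Hoxa (squares), Hoxb (circles), Hoxc (triangles) and Hoxd (diamonds) clusters. A locus merged from several genes is drawn at each of its numbers (Hoxa2 with Hoxa3, Hoxc5 with Hoxc10, Hoxd3 with Hoxd4, Hoxd10 with Hoxd11), and open symbols mark loci with at most 3 counts in every library of a genotype. Hoxb and Hoxc lie between 3.38 and 7.28, while Hoxa and Hoxd all lie below 0 from number 9 upwards.

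Of the 9 genes for HOX cofactors all were tested, and 6 rose, where 33.6% of all tested loci did. Meis1, a partner of HOX proteins that is also part of the leukaemia programmes driven by HOX genes, had 136, 116 and 124 counts in WT and 666, 977 and 1122 in Yme1l-/- and rose by 2.40 ± 0.10 (adjusted p = 3.18e-09, edgeR). The other MEIS genes rose as well, Meis3 by 1.34 ± 0.08 and Meis2 by 1.28 ± 0.06. No cofactor reached the smallest Hoxb value, 3.38.

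The PBX family, which binds DNA together with many HOX proteins, differed among its members. Pbx4 rose by 0.90 ± 0.18 and the locus that holds Pbx2 together with Gpsm3 by 0.34 ± 0.05, whereas Pbx3 had a log2 fold change of -0.05 ± 0.06 that did not pass the test. Of the related Pknox genes Pknox2 rose by 0.90 ± 0.08 and Pknox1 was at -0.06 ± 0.05, which did not pass it either. With the chromosome medians removed Pknox1 was called lower at -0.23, and no other cofactor changed its call.

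**Figure D5:**
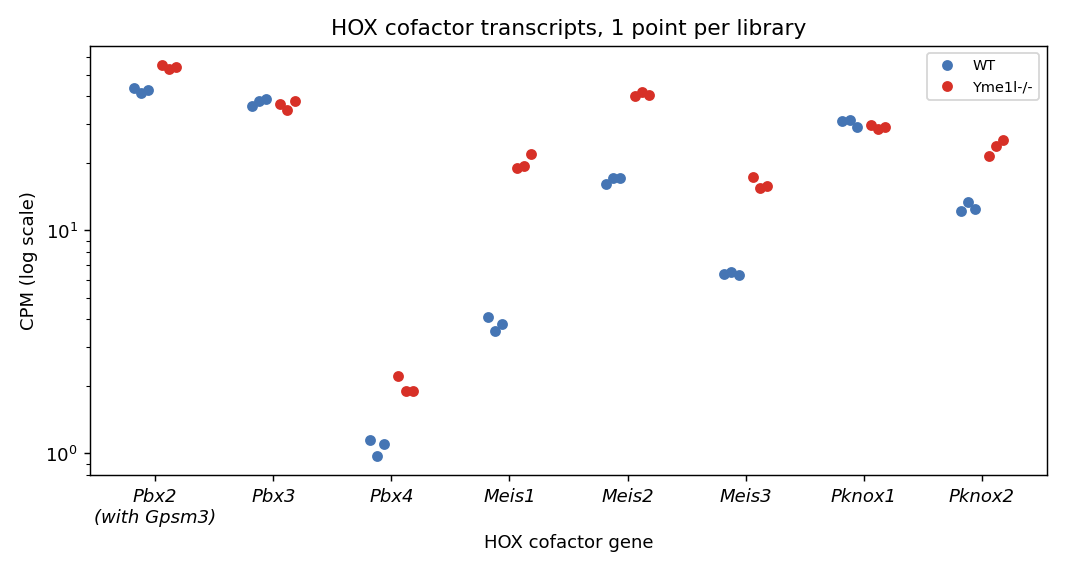
CPM on a log scale of 8 HOX cofactor genes, with 1 point per library (WT blue, Yme1l-/- red, 3 each). The red points lie above the blue ones for Pbx2 (a locus shared with Gpsm3), Pbx4, Meis1, Meis2, Meis3 and Pknox2, and among them for Pbx3 and Pknox1.

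Among 18 genes of the retinoic acid pathway, which acts on the 3′ Hoxb genes through response elements, 13 were tested, of which 4 rose and 8 fell, beside 33.6% and 34.1% of all tested loci. Dhrs3, which turns retinal back into retinol, had 3, 6 and 4 counts in WT and 30, 59 and 78 in Yme1l-/- and rose by 3.16 ± 0.37 (adjusted p = 1.73e-05, edgeR), having passed the filter through Yme1l-/-. Crabp1, which binds retinoic acid in the cytosol, fell by 3.07 ± 0.08 and Rdh10, which makes retinal from retinol, by 1.94 ± 0.09. Hoxb1 was at 0 in the same libraries. Thus members of the pathway moved in both directions, and with the chromosome medians removed 2 in place of 4 were called higher.

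Of 24 Polycomb and trithorax genes 23 were tested, and 11 rose, 7 fell and 5 were not called, in a contrast where 67.7% of all tested loci were called, 33.6% higher and 34.1% lower. The Polycomb subunit Cbx7 had the largest rise, 1.15 ± 0.08, and Phc2, another subunit, fell by 0.98 ± 0.06. Kdm6a, an X-linked enzyme that removes the Polycomb mark, fell by 0.73 ± 0.06. These differences were all below those of the Hoxb genes, and 7 in place of 11 were called higher with the chromosome medians removed.

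Of 12 regulators of axial patterning 6 were tested, of which 1 rose and 4 fell, beside the same shares of 33.6% and 34.1% over all tested loci. Yy1, a zinc finger protein that can activate or repress, fell by 0.89 ± 0.05, and Gdf11, a growth factor gene of tail patterning, rose by 0.98 ± 0.06. The caudal genes Cdx2 and Cdx4, activators of central Hoxb genes in the embryo, were at 0 counts in all libraries and Cdx1 had at most 1.

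Other transcripts also separated the genotypes together with the Hoxb genes. The locus that holds Xist, the RNA that coats an inactive X chromosome, had 17470, 18126 and 25214 counts in WT and 2, 11 and 2 in Yme1l-/-, and the Y-linked genes Ddx3y, Eif2s3y, Kdm5d and Uty were at 0 in all libraries. The 6 epithelial markers summed to 33.1 to 35.1 CPM in WT and 0.373 to 0.686 CPM in Yme1l-/-, almost all of it Krt18, with 1048, 1086 and 1012 counts against 0, 1 and 3. Both tested epithelial markers, Krt18 and Epcam, fell, as 34.1% of all tested loci did. Both passed the filter on low counts through WT, so their count was largely fixed by the filter. The 4 neural markers with a locus in the table (Tubb3 had none) summed to 22.5 to 27.4 CPM against 6.23 to 8.30, almost all of it Map2, while Sox10 and Rbfox3 had at most 1 count in any library. Blood markers summed to 1.74 to 1.96 CPM in WT and 3.77 to 4.14 in Yme1l-/-, with Adgre1 and Cd3e at 0 and Ptprc at no more than 1, the endothelial markers to 0.888 to 1.44 and 1.67 to 2.00, and the muscle markers to 0.398 to 0.604 and 2.2 to 3.2. The part of any of these in the Hoxb values was not tested.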

How the data were processed

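Poly(A)-selected, stranded libraries were sequenced with paired ends. Per the study's methods and the submitters' processing notes, reads were mapped to mm10 (Ensembl build) with HISAT2 2.0.4, transcripts were assembled with StringTie 1.3.3 and genotypes compared with Cuffdiff 2.2.1. The raw counts deposited by the authors are whole fragments per assembled locus, without normalization; the counting tool and its use of strand are not given in the sources used here. The authors' table of the comparison holds 1 combined FPKM value per genotype, which was used, and fold changes, p-values and q-values, which were not. The authors' test needs reads, so the counts were tested with edgeR 4.0.16 in R 4.3.3 (filterByExpr with a minimum count of 10, TMM scaling, robust quasi-likelihood fit of all 6 libraries without covariates, two-sided, Benjamini-Hochberg adjustment over all 13867 tested loci, threshold 0.05), checked on simulated data. P-values measure the spread between cultures of cloned cells. Where every library of a genotype had at most 3 counts, a fold is a lower bound, the mean of the other genotype over 3 counts in the library of the first where these weigh most.

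The members and gene lists were chosen with earlier results of these data known. Genes named were all Hoxb genes, loci between them with at least 10 counts in all, the nearest tested neighbours, the 2 highest and 2 lowest flank loci, all cofactors, and from other lists the 2 highest and 2 lowest calls that reached 1 CPM on average in the higher genotype; other names (Hox paralogues, markers, loci at or near 0) were added to account for a list or a count. Some genes that this rule names are not reported here. Alternatives were RLE and upper-quartile scaling, DESeq2 1.42.0, no filter or 10 counts in every library, a block for the replicate number, leaving out each library, removal of chromosome medians and thinning to the smallest library. Promoters of Hoxb2, Hoxb3, Hoxb5, Hoxb6, Hoxb7, Hoxb9 and Hoxb13 and protein sequences were not used here.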

Additional observations from a re-analysis of the deposited data

How the results depend on the processing

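The 9 Hoxb genes kept their direction and stayed called in 124 of 124 refits over 14 alternative settings, with log2 fold changes between 3.03 and 6.21; with at least 10 counts in every sample only 7 of them could be tested, since Hoxb13 and Hoxb5 lacked counts in WT. Their median, 4.07, was 4.13 with upper-quartile scaling, 3.71 with the chromosome medians removed and 4.02 after thinning, and 3.99 to 4.29 when each library was left out. Of the loci around the cluster, 14 were higher, but 9 with 10 counts in every sample, where fewer loci were tested, and 7 with the chromosome medians removed, where 4 instead of 2 were lower. The removal of chromosome medians also gave 2 cofactors lower (1 before), 2 retinoic acid genes higher (4 before) and 7 Polycomb and trithorax genes higher (11 before), turned Snx11 from 0.31 to -0.0468 (not called), left Atp5g1 not called at 0.16, and made Gm11539 (-0.71) and Pknox1 (-0.23) calls. It subtracts 0.36 from loci on chromosome 11. Axial regulators counted 2 higher in place of 1 with upper-quartile scaling and without the filter; the cause was not tested. Deviations of same-numbered cultures had correlations of 0.198, -0.158 and 0.0482. With 3 cultures per genotype these cannot settle whether the numbers pair the cultures. With the replicate block 9794 loci were called in place of 9387, the Hoxb median was 4.07 and no Hoxb call changed. Low WT counts, 3 to 81 per gene and library, limit the precision of the Hoxb ratios.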
